A study of Mus musculus with 3 samples.

Results

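Dendritic cells of the mouse vomeronasal organ were taken from 3 single-cell RNA-seq libraries by their expression of MHC class II genes. A cell was counted as a member when H2-Aa, H2-Ab1, H2-Eb1 and Cd74 together gave at least 1% of its unique molecular identifiers (UMIs, counts of single captured mRNA molecules), the complement genes C1qa, C1qb and C1qc gave at most 0.1%, the B cell receptor genes Cd79a and Cd79b gave at most 2 UMIs and the dendritic cell genes Napsa, Plbd1, Cd209a and Flt3 together gave at least 2 UMIs. This rule found 479 cells among the 13353 that passed the cell filter. The control at postnatal day 10 (P10) held 90 of them, the mutant of that age 119 and the mutant at 3 months 270, and where 3 values stand in a row below they follow this order. Because expression chose the cells, the levels of the rule's own genes describe the choice and are no finding.

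The vomeronasal organ is a chemosensory organ of the nasal septum, and per the series' own description the transcription factor AP-2ε (gene Tfap2e) was placed in its maturing neurons to see how their fate changed. All 3 libraries came from male mice of mixed C57 BL/6J and 129P2/OlaHsd background and all carried the OMPCre allele, in which the gene for olfactory marker protein (Omp) drives Cre recombinase in maturing sensory neurons. The control was OMPCre Heterozygous at P10, and the mutants, at P10 and at 3 months, were OMPCreR26AP2e Double Heterozygous, so that a Rosa26 transgene gave AP-2ε in neurons that had switched on Omp. Tissue was dissociated with papain, frozen as a cell suspension and captured with 10x Genomics 3′ chemistry. Each group had 1 library, and the number of animals in a library is not given in the sources used here. No test between groups was therefore possible, and every interval below is an exact 95% interval that covers counting error only. A limit given beside a count of 0 is instead 3 counts over the total, and for cells it limits those with a UMI and not those that express the gene. At P10 genotype and library cannot be told apart, and between the mutants age, library and counting run cannot be told apart.

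Dendritic cells are sentinels that take up material in tissues, load its fragments onto MHC class I and class II molecules and present them to T cells. Conventional type 1 cells (cDC1) carry XCR1 and CLEC9A, depend on IRF8 and BATF3 and excel at presenting captured antigen on class I, while conventional type 2 cells (cDC2) carry lectins such as CD209A and CLEC10A, depend on IRF4 and present mainly on class II. On maturing, either kind switches on the chemokine receptor CCR7 and moves to the draining lymph node, and plasmacytoid dendritic cells are a separate lineage that releases type I interferon.

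The class II genes share a promoter architecture that is bound by RFX and NF-Y and read by the coactivator CIITA, and its last element, the Y box, is an inverted CCAAT box. The promoters of 6 class II genes are shown because 2 of them, H2-Aa and H2-Eb1, are in the rule and the others act on the same pathway. The letters TGATTGG were searched on both strands in the RefSeq promoter windows of GRCm38.p6, each of 250 bases before and 50 bases after the listed start. The motif was chosen with these sequences in view. Of 11 class II and class II accessory genes looked up, 8 were in the table, and 7 of these held the letters, against 9% of all 27025 genes with a window. Each line below gives the 130 bases before the listed start, 5′ to 3′ on the gene's strand, with TGATTGG in capitals.
H2-Aa, chr17:34287824-34287953, minus strand: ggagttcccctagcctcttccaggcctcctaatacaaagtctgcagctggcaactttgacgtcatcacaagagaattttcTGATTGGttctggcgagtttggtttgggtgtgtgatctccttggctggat
H2-Eb1, chr17:34305737-34305866, plus strand: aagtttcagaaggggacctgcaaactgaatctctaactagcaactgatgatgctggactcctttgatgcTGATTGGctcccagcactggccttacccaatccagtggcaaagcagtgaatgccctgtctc
H2-DMb1, chr17:34153061-34153190, plus strand: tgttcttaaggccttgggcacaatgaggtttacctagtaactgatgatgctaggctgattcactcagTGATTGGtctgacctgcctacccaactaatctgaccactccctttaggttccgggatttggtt
H2-DMb2, chr17:34145119-34145248, plus strand: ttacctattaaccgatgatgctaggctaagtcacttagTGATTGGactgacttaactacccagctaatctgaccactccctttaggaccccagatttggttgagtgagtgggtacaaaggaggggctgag
H2-Oa, chr17:34092249-34092378, plus strand: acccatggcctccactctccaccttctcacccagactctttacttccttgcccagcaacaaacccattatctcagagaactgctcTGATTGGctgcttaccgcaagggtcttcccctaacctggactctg
H2-Ob, chr17:34238775-34238904, plus strand: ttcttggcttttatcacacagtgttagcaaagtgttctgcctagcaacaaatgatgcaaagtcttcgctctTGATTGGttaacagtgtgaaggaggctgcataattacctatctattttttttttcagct
In the 7 promoters the letters began 45 to 102 bases before the listed start, at 45 in H2-Oa, 50 in H2-Aa, 59 in H2-Ob, 61 in H2-Eb1, 63 in H2-DMb1, 92 in H2-DMb2 and 102 in H2-Eb2, whose sequence is not shown. The eighth gene in the table, H2-DMa, did not hold these letters in either of its windows. A match is a description of the letters and not a mapped binding site.

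Dendritic cells made up 2.09% of filtered control cells (90 of 4305, 95% interval 1.68 to 2.56%), 3.18% of those from the mutant at P10 (119 of 3741, 2.64 to 3.79%) and 5.09% at 3 months (270 of 5307, 4.51 to 5.71%). These intervals do not overlap. Over leukocytes, defined as filtered cells with a UMI of the pan-leukocyte gene Ptprc, the shares lay close together, at 12.0% (83 of 692, 9.67 to 14.7%), 12.5% (110 of 883, 10.4 to 14.8%) and 12.8% (250 of 1951, 11.4 to 14.4%). The order over all cells thus went with the number of leukocytes captured, and in dissociated tissue the number of cells and their recovery cannot be told apart. With the mitochondrial limit of 5% in place of 10%, the shares were 4.69, 8.20 and 7.22% of filtered cells, so the order of the mutants turned. The same limit gave 14.6, 17.8 and 13.8% of Ptprc cells, so that the P10 mutant left its interval above. The plot of shares by library shows these denominators and that of class II cells.

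**Figure D1:**
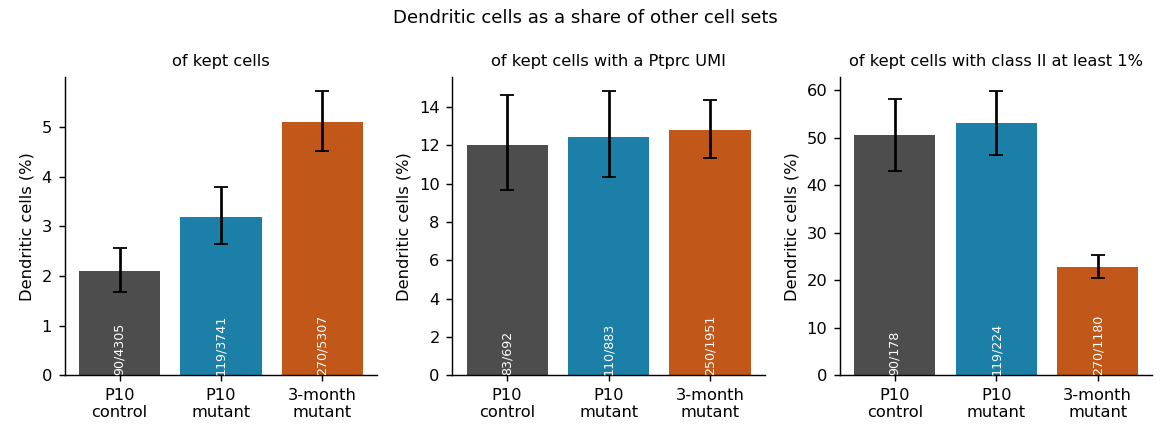
Share of dendritic cells in each library, in percent of filtered (kept) cells, of those with a Ptprc UMI and of those with class II genes at 1% of UMIs or more, where bars are shares and error bars are exact 95% binomial intervals. The share of all cells went from 2.09 to 5.09% over the 3 libraries, while the share of Ptprc cells stayed between 12.0 and 12.8%.

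Macrophages, taken as cells with at least 0.5% of UMIs from the C1q genes, numbered 196, 201 and 606. There were 0.459 dendritic cells per macrophage (0.354 to 0.592), 0.592 (0.468 to 0.746) and 0.446 (0.385 to 0.515), and these intervals overlap. Class II genes reached 1% of UMIs in 15.3 and 18.9% of macrophages at P10, control first, but in 88.1% at 3 months. Dendritic cells were 50.6 and 53.1% of all class II cells at P10 and 22.9% at 3 months. At 3 months 312 cells failed the C1q term alone, against 36 and 43 at P10.

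Cells lay on both sides of each limit of the rule. The class II share nearest the limit was 0.988, 0.792 and 0.844% outside it and 1.03, 1.29 and 1.01% inside. Only 12, 10 and 31 members lay under 2%. Exactly 2 UMIs of Napsa, Plbd1, Cd209a and Flt3 were held by 3, 7 and 15 members, and 32, 40 and 303 cells failed that term alone. At 3 months the cells that failed C1q alone, and those that failed this term alone, were each more than the 270 members. Median depth of the members was 14886.5, 13240 and 10928 UMIs, with a range of 1009 to 71085 over all members. No barcode was shared between members of different libraries.

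Levels were pooled over the members of a library and are given as counts per 1000000 member UMIs (CPM). The class II genes of the rule stood at like levels in the 3 libraries. H2-Aa, the alpha chain of I-A, gave 9321, 9681 and 8822 CPM. H2-Ab1, its beta chain, gave 9012, 9079 and 9985 CPM, and H2-Eb1, the beta chain of I-E, gave 9512, 9835 and 8698 CPM. Cd74, the invariant chain that guards the groove until peptide is loaded, was the most abundant of the 4 at 22257, 21997 and 18420 CPM. Among the other genes of the rule, Napsa, an aspartic protease, gave 720, 716 and 675 CPM, and Flt3, the receptor for the growth factor of dendritic cells, gave 78.4, 81.9 and 75.7 CPM.

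The cells' leading genes were those of dendritic cells. The genes with the highest ratio of members to all other filtered cells were led by Tlr11, Xcr1, Cd209a, Ccl22, Gcsam and Clec9a, with Htr7, Flt3, Ifi205, H2-Oa, Klrd1 and Mgl2 among the next. Cd209a and Flt3 belong to the rule, and the ranking describes the cells it chose and carries no test. H2-Oa, which tempers the peptide exchange factor H2-DM, gave 125, 117 and 167 CPM in members against 1.36, 1.59 and 2.90 CPM in all other cells. Klrd1, the CD94 chain known from natural killer cells, gave 279, 238 and 333 CPM against 2.08, 2.57 and 13.1 CPM. Zbtb46, the transcription factor of conventional dendritic cells, was low but enriched, at 10.7, 20.03 and 17.7 CPM against 1.73, 1.99 and 0.661 CPM in macrophages.

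Macrophage genes were far lower in the members than in macrophages, while for stroma and gland genes either class could be higher. The 11 macrophage genes outside the rule summed to 740, 504 and 1125 CPM in members and to 39557, 40983 and 44571 CPM in macrophages. Apoe made up most of the members' sum, at 543, 299 and 895 CPM, and the defining macrophage gene Folr2 was at 0 in all 3 libraries, where a count of 0 allows up to 2.14, 1.77 and 0.966 CPM. Pax5, a defining B cell gene, was at 0 throughout, while the antibody light chain Igkc gave 45.6, 15.3 and 378 CPM. In the 3-month mutant Igkc was present in 249 of 270 members, and its part in other values was not tested. Cd207, the langerin of Langerhans cells, gave 0, 0 and 1 UMIs. Epcam, the other gene of the Langerhans list, made up the rest of that list's 147, 77.8 and 222 CPM. Of these UMIs 48.5, 35.6 and 29.6% lay in 1 cell, and 6, 9 and 35 members held at least 3. All other filtered cells gave 1170, 1257 and 738 CPM of the list. Between the mutants Epcam passed 2-fold, with a log2 ratio of 1.51. The 5 stroma genes summed to 593, 8379 and 204 CPM in members, with 56.1% of the P10 mutant's UMIs in 1 cell, against 621, 823 and 85.5 CPM in macrophages. The 9 gland genes summed to 1388, 1008 and 2811 CPM, and macrophages gave 597, 168 and 4173 CPM. A single member held 77.3 and 91.4% of these UMIs at P10 and 3.53% at 3 months, where 269 of 270 members held at least 3 UMIs. All other filtered cells gave more of both lists, at 10683, 12162 and 2227 CPM for stroma and 11306, 5445 and 26074 CPM for gland.

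Tfap2e, the gene of the transgenic factor, was close to absent from members of the control, with 1 UMI in 90 cells. In the P10 mutant 19 members held 24 UMIs (14.1 CPM), and in the 3-month mutant 34 members held 83 UMIs (26.7 CPM), of which 44.6% lay in 1 cell. All other filtered cells gave 9.92, 167 and 53.7 CPM, so the order of control and mutants went with the labels, and macrophages gave 2.89, 12.9 and 11.2 CPM. The part of free RNA in these counts was not tested.

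At 3 UMIs or more, defining genes of cDC1 and of cDC2 were held by different members. Xcr1 encodes the receptor for the chemokine XCL1, and Clec9a a lectin that senses dead cells. At least 3 UMIs of these genes together were held by 17 of 90 control members (18.9%), 25 of 119 P10 mutant members (21.01%) and 32 of 270 at 3 months (11.9%, 8.25 to 16.3%). Among macrophages 0, 0 and 2 cells reached this count, and the counts of 0 allow up to 1.53 and 1.49% of macrophages. At least 3 UMIs of Cd209a and Mgl2, lectins of cDC2, were held by 41 members (45.6%), 51 (42.9%) and 116 (43.0%), against 2, 4 and 26 macrophages. No member reached 3 UMIs of both pairs, where 3 counts would be 3.33, 2.52 and 1.11% of members. Cd209a belongs to the rule, so the number of Cd209a and Mgl2 cells is in part set by the choice of members.

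**Figure D2:**
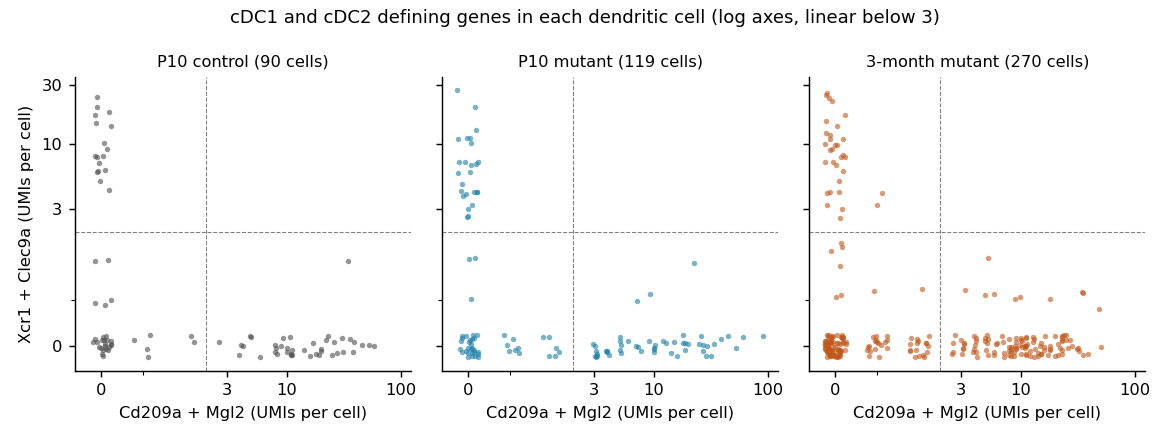
UMIs of Cd209a plus Mgl2 (horizontal) against UMIs of Xcr1 plus Clec9a (vertical) in each dendritic cell, 1 panel per library. Points are spread slightly so that equal counts can be told apart. Cells lie along one axis or the other, and none reached 3 UMIs on both.

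The Xcr1 and Clec9a cells carried the other genes of cDC1. Irf8, their lineage factor, gave 1141 CPM in these cells of the control against 198 in its other members, and 1253 against 113 and 1122 against 172 CPM in the mutants. Naaa, a lysosomal amidase of cDC1, gave 1021 against 119, 783 against 117 and 882 against 80.5 CPM. Wdfy4, needed by cDC1 for cross-presentation, gave 366 against 79.5, 396 against 74.8 and 366 against 95.6 CPM. Cd209a had no UMI in these 17, 25 and 32 cells, which allows up to 17.6, 12 and 9.38% of them to hold one. Irf4, the cDC2 factor, gave 0, 5.34 and 1.91 CPM against 72.2, 58.9 and 52.3 in the other members. These levels describe cells chosen by their expression.

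The cDC1 cells stood lower in several genes of antigen handling and inflammation. Ctss, cathepsin S, which cleaves the invariant chain, gave 405, 468 and 572 CPM in them against 1371, 1342 and 1572 in the other members. Il1b, the inflammatory cytokine interleukin-1 beta, gave 869, 1040 and 1206 CPM against 2986, 2249 and 3231. Klrd1 gave 3.24, 8.02 and 45.9 CPM against 357, 303 and 391, so this leading gene of the whole set belonged to the other members. H2-DMb2, a beta chain of H2-DM, gave 12.96, 26.7 and 78.5 CPM against 129, 75.6 and 146, and its reads are uncertain because H2-DMb1 is a close paralog.

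The Cd209a and Mgl2 cells held more Clec10a and less Irf8 than the other members. Clec10a, a lectin for galactose, gave 526 CPM in them against 47.5 in the other members of the control, and 383 against 76.1 and 338 against 37.3 CPM in the mutants. Irf8 gave 17.9, 25.7 and 55.3 CPM against 825, 678 and 540. Klrd1 gave 412, 339 and 485 CPM, and Il1b gave 3422, 2218 and 3510 CPM. In the P10 mutant this Il1b level lay just under that given above for the members outside the Xcr1 and Clec9a cells. Clec10a and Mgl2 are near paralogs, so reads between them are uncertain.

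The Xcr1 share was the lowest at 3 months. After each cell was thinned to 5000 UMIs, which left out 8, 13 and 30 shallower members, Xcr1 was seen in 19.5% of control members (11.6 to 29.7%), 17.0% of P10 mutant members (10.4 to 25.5%) and 10.4% at 3 months (6.85 to 14.99%). Without thinning the shares were 21.1, 22.7 and 12.2%, and in thinned macrophages, whose median depths were 7629.5, 9710 and 7282.5 UMIs before thinning, they were 0, 0 and 0.746%. The intervals overlap, so a difference was not shown at this depth. The pooled level of Xcr1, on chr9:123852315-123862029 of GRCm38, was 93.4 CPM (78.1 to 111), 74.2 (61.8 to 88.4) and 67.6 (58.8 to 77.4), and Clec9a stood at 44.9, 43.6 and 43.1 CPM. Cd209a was seen in 45.1, 42.5 and 42.5% of thinned members and in 0, 0 and 1.24% of thinned macrophages.

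When each member was given to whichever of 5 marker lists held most of its UMIs, with at least 3 needed, 27, 25 and 28 members fell to the cDC1 list, or 30, 21.01 and 10.4%. The cDC2 list, which leaves out Cd209a because the rule used it, took 24, 27 and 44 members. The list of mature migratory genes took 2 members (2.22%, 0.27 to 7.80%), 5 (4.20%, 1.38 to 9.53%) and 29 (10.7%, 7.31 to 15.1%). The plasmacytoid list took 5, 1 and 14 members, or 5.56, 0.84 and 5.19%. All of these held a Bst2 UMI, but 5, 1 and 6 held one of Siglech and 5, 1 and 7 one of Ly6d. The 3-month share thus includes cells without these 2 genes, and 11 of its 14 cells held Epcam, at 1192 CPM. The largest group followed the monocyte list, with 29 members (32.2%), 55 (46.2%) and 146 (54.1%). These cells were led by Plac8, at 1763, 1831 and 1852 CPM, and Ccr2, the receptor that brings monocytes out of the blood, at 459, 412 and 529 CPM. Neither gene was particular to them. Plac8 gave 670, 1055 and 1083 CPM in the cDC1 list cells and 1860, 2622 and 380 CPM in the plasmacytoid list cells. Ccr2 gave 314, 492 and 235 CPM in the cDC2 list cells. The monocyte list cells also held Cd209a at 608, 318 and 484 CPM and Flt3 at 82.5, 59.4 and 60.1 CPM, but both genes belong to the rule. Fcgr1, a gene of the monocyte list, was seen in 25 of 29, 44 of 55 and 94 of 146 of these cells. In cDC2 list cells it was seen in 16 of 24, 15 of 27 and 9 of 44. Lyz2, a lysozyme of phagocytes named after its values were seen, gave 1585, 1032 and 3013 CPM against 312, 537 and 459 in cDC2 list cells. Of the Cd209a and Mgl2 cells above, 18 of 41, 24 of 51 and 65 of 116 lay in this group. The monocyte list cells are thus called by their leading genes and not by a cell type. At a depth of 1000 UMIs the cDC1, cDC2 and monocyte lists took fewer cells, down to 14.4, 12.6 and 8.15% for cDC1, and a cut on a summed count marks a range and not a type.

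Ly6c2, a surface marker of inflammatory monocytes, was higher in the members of this group at 3 months than at P10. It gave 174, 182 and 683 CPM in the Plac8 and Ccr2 cells and 146, 110 and 375 CPM in all members, with a log2 ratio of 1.77 between the mutants (ratio interval 2.91 to 3.99). It came from 16, 19 and 81 members and was not particular to this group. The 5, 1 and 14 plasmacytoid list cells gave 1483, 2260 and 443 CPM of Ly6c2. Ccr2 itself was seen in 62.2, 66.0 and 56.7% of members thinned to 5000 UMIs and in 24.6, 29.6 and 31.1% of thinned macrophages, and at 70, 78.2 and 64.4% of members before thinning.

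Few genes passed 2-fold at P10. Of 5636 genes with at least 50 UMIs in the members of both libraries together, called tested here, 89 were at least 2-fold higher in the mutant, which is 1.58%, and 122 were at least 2-fold lower, which is 2.16%, or 3.74% in either direction. The median log2 ratio of mutant over control was -0.018. None of the 13 class II accessory genes, 18 class I genes, 19 transcription factor and growth factor receptor genes, 10 cDC1 genes and 8 cDC2 genes that were tested passed 2-fold. Ciita, the class II coactivator, gave 92.7 CPM (77.5 to 110) in the control and 129 (113 to 147) in the mutant. H2-DMa gave 748 and 755 CPM and H2-DMb1 gave 983 and 918 CPM. Macrophages held 197 and 179 CPM of H2-DMa and 8.09 and 9.46 CPM of Ciita. Their sum over the 16 class II accessory genes was nonetheless higher, at 8693, 8711 and 8997 CPM against 4975, 5093 and 5215 in members, and so was their sum over 19 class I genes, at 9630, 9021 and 12408 against 7360, 7537 and 9576 CPM.

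Several genes of mature, migrating dendritic cells were higher in the P10 mutant. Of 9 tested, 5 were at least 2-fold higher in the P10 mutant and none lower, with a median log2 ratio of 1.04 against -0.018 over all genes tested. Ccr7, on chr11:99144196-99155077 of GRCm38, gave 14.3 CPM in the control (8.71 to 22.03) and 119 in the mutant (103 to 137), a log2 ratio of 3.06 (ratio interval 5.26 to 13.95). Ccl22, a chemokine that draws T cells, gave 8.56 and 56.0 CPM, a log2 ratio of 2.71. Ccl17, its neighbour on chromosome 8 with the same receptor, gave 7.13 and 37.7 CPM, a log2 ratio of 2.40. Il4i1, a secreted amino acid oxidase, gave 4.99 and 31.2 CPM, a log2 ratio of 2.64. The fifth, Ccl5, gave 82.0 and 168 CPM, but 1 cell held 85.7% of its UMIs in the mutant, and without the members that held at least 3 Ccr7 UMIs its log2 ratio turned from 1.04 to -3.15.

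Genes of the same state in other lists were higher too. Il12b, the shared p40 chain of interleukin-12 and interleukin-23, gave 6.42 CPM in the control and 102 in the mutant, a log2 ratio of 3.997 (ratio interval 8.22 to 35.5). Cd274, the inhibitory ligand PD-L1, gave 7.84 and 24.2 CPM, a log2 ratio of 1.62, and was the sole costimulation gene of 8 tested to pass 2-fold. Fscn1, the actin bundler fascin, gave 17.8 and 25.3 CPM and Socs2 gave 28.5 and 25.3 CPM, so these genes of the mature list did not pass 2-fold at P10. Relb gave 51.4 and 71.9 CPM, and Traf1 gave 200 and 256 CPM.

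These pooled differences came from few cells. A Ccr7 UMI was found in 8 members of the control and 15 of the mutant, and at least 3 UMIs in 4 of 90 (4.44%, 1.22 to 10.99%) and 8 of 119 (6.72%, 2.95 to 12.8%). The 4 control cells held 3 to 4 UMIs each, whereas the 8 mutant cells held 3 to 78, with a median of 24.5. A single mutant cell held 38.6% of the library's member Ccr7 UMIs, 41.1% lay in the top cell for Ccl22 and 42.0% for Il12b. In cells thinned to 5000 UMIs Ccr7 was seen in 3.66% of control members (0.761 to 10.3%) and 10.4% of mutant members (5.30 to 17.8%), and in none of 122 and 135 thinned macrophages, which allows up to 2.46 and 2.22%. The shares of cells therefore overlapped in their intervals, while the highest control cell lay far under the mutant median.

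At 3 months the share of members with Ccr7 lay within the interval of the P10 mutant. The share on the mature list given above, 10.7%, lay above the P10 mutant's interval for that list. These mature list intervals overlap, at 1.38 to 9.53% in the P10 mutant and 7.31 to 15.1% at 3 months. At least 3 Ccr7 UMIs were held by 22 of 270 members (8.15%, 5.18 to 12.1%), with 3 to 71 UMIs each and a median of 16.5, and by 1 of 606 macrophages. Ccr7 was seen in 10.8% of thinned members (7.20 to 15.5%) and in 0.746% of thinned macrophages, and pooled it gave 156 CPM (143 to 171). Before thinning it was seen in 8.89, 12.6 and 11.9% of members of the 3 libraries. Ccl22 gave 80.8 CPM, Ccl17 gave 53.4, Il12b gave 93.4 and Cd274 gave 38.0.

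Within the Ccr7 cells the mature genes were high together in both mutants. Ccl22 gave 464 CPM in these cells of the P10 mutant and 770 at 3 months, against 18.6 and 17.6 in the other members, and Fscn1 gave 204 and 770 CPM. Il12b gave 795 and 893 CPM but was present in 3 of 8 and 9 of 22 of these cells. Il4i1 gave 359 and 582 CPM and Cd274 gave 176 and 230 CPM. Ccl22, Fscn1 and Il12b had no UMI in the 4 control cells, too few cells to set a limit. The 2 control members on the mature list held 15 Fscn1 and 83 Ccl5 UMIs and none of Ccr7.

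The Ccr7 cells of the mutants held less Cd209a, H2-DMb1 and Lyz2 than the other members, and more Relb. Cd209a, a gene of the rule, gave 523 CPM in the 4 control cells and 56.3 and 26.8 CPM in the Ccr7 cells of the P10 and 3-month mutants, against 376, 336 and 409 in the other members. H2-DMb1, which loads peptide onto class II, gave 1127 CPM in the control cells, against 976 in the other members. In the mutants it gave 394 and 280 CPM, against 966 and 808. Lyz2, a lysozyme of phagocytes named after its values were seen, gave 278, 35.2 and 69.0 CPM against 853, 770 and 1793. Relb, a subunit of NF-kappaB, gave 65.3, 253 and 330 CPM against 50.7, 55.3 and 37.6.

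**Figure D3:**
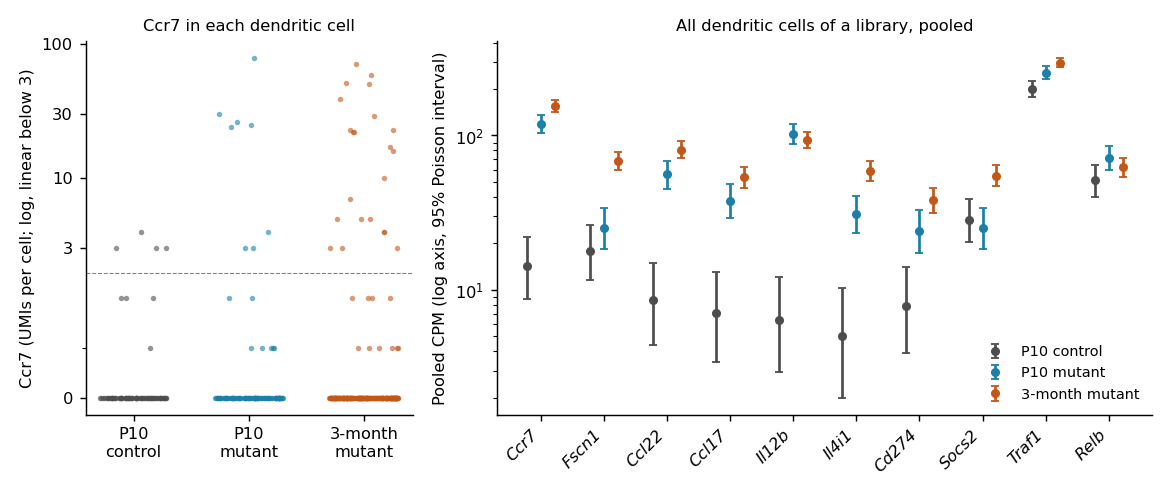
Left, Ccr7 UMIs in each dendritic cell by library, and right, pooled levels in CPM of Ccr7, Fscn1, Ccl22, Ccl17, Il12b, Il4i1, Cd274, Socs2, Traf1 and Relb on a log axis, with exact 95% Poisson intervals. Control cells hold few Ccr7 UMIs each while single cells of both mutants reach 78 and 71, and pooled Ccr7, Ccl22, Ccl17, Il12b and Il4i1 lie higher in both mutants than in the control.

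Plasmacytoid genes ran the other way at P10 and rested on a handful of cells. Siglech, the lineage's surface lectin, gave 57.8 CPM (45.9 to 71.8) in the control, and 26.5 (19.3 to 35.5) and 24.1 (19.0 to 30.3) in the mutants. Cox6a2 gave 41.4, 2.36 and 12.9 CPM and Ly6d gave 187, 33.6 and 142 CPM, and these were the 3 of 7 tested plasmacytoid genes that were at least 2-fold lower in the P10 mutant. At least 3 Siglech UMIs were held by 6, 4 and 5 members, but also by 4, 2 and 14 macrophages. In thinned cells Siglech was seen in 8.54, 5.66 and 5.42% of members and in 8.20, 9.63 and 8.96% of macrophages. The share in members was thus near or under that in macrophages, and the part of free RNA in it was not tested. Before thinning Siglech was seen in 17.8, 9.24 and 6.30% of members. The sign of the P10 Siglech ratio turned, to a log2 ratio of 0.77, under the 5% mitochondrial limit.

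Pooled, the 6, 4 and 5 Siglech cells nevertheless held further genes of that lineage. Of these cells 4, 1 and 4 fell to the plasmacytoid list. In the P10 mutant 1 each fell to the cDC1, mature, plasmacytoid and monocyte lists. Bst2, an interferon-induced surface protein, gave 2937, 1523 and 1159 CPM in the Siglech cells against 420, 499 and 477 in the other members. The single plasmacytoid list cell of the P10 mutant gave 4972 CPM of Bst2. In the pooled Siglech cells further genes were as follows. Tcf4, the factor that specifies plasmacytoid cells, gave 685, 453 and 569 CPM. Ccr9, a homing receptor, gave 360, 264 and 175 CPM. Their class II gene H2-Aa gave 5724, 7201 and 3412 CPM, and it belongs to the rule, which keeps out plasmacytoid cells that are low in class II.

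Between the mutants more genes differed. Of 6959 tested genes, 337 were at least 2-fold higher at 3 months (4.84%) and 253 at least 2-fold lower (3.64%), or 8.48% in either direction, with a median log2 ratio of -0.017. Both comparisons use the P10 mutant library. H2-DMb2 was the one class II accessory gene of 14 tested to pass 2-fold, at 64.8 CPM in the P10 mutant (53.3 to 78.1) and 135 at 3 months (122 to 148). H2-Oa gave 117 and 167 CPM. Of 19 class I genes, H2-Q7 alone passed, at 75.4 and 236 CPM, with H2-Q6 as a near-identical copy, and the list's median log2 ratio was 0.30. Psmb8, a subunit of the immunoproteasome, gave 613 and 979 CPM, H2-K1 gave 1059 and 1469 CPM and B2m, the class I light chain, gave 1533 and 1865 CPM.

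Pooled over members, the transcription factors of the lineage stood at like levels. Irf8 gave 406, 364 and 331 CPM pooled, but 490, 405 and 262 CPM as a mean over cells. Irf4 gave 56.3, 47.1 and 43.8 CPM, Batf3 64.9, 78.9 and 93.4 CPM, and Spi1, the myeloid factor PU.1, 398, 458 and 448 CPM. Of 20 tested genes of this list, Kit, the stem cell factor receptor, alone passed 2-fold, at 24.2 CPM in the P10 mutant and 64.7 at 3 months, where 98 of 270 members held it. Macrophages held 3.98 and 3.75 CPM of Kit.

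Of 8 tested cDC2 genes 2 were at least 2-fold lower at 3 months than in the P10 mutant. Sirpa, a receptor for CD47, gave 84.9, 133 and 63.1 CPM, and Cd209d, a lectin beside Cd209a, gave 46.4, 54.2 and 18.0 CPM. The list's median log2 ratio was -0.62. Cd209a, which is in the rule and not on that list, did not follow, at 382, 312 and 377 CPM. Clec10a went from 296 through 224 to 167 CPM and Mgl2 from 174 through 206 to 131 CPM. Of 10 cDC1 genes Cadm1 alone passed 2-fold, at 86.0 and 37.0 CPM, and macrophages held more of it, at 53.3 and 141 CPM. On the list of mature genes 2 of 11 tested genes were at least 2-fold higher at 3 months, Fscn1 at 25.3 and 68.6 CPM and Socs2, a brake on cytokine signalling, at 25.3 and 55.1 CPM. The Socs2 ratio turned, to a log2 ratio of -0.27, when the class II minimum was 0.5%.

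Of 19 tested chemokine and receptor genes 4 were at least 2-fold higher at 3 months and 1 lower, with a median log2 ratio of 0.04. Cxcl9, induced by interferon gamma, gave 17.1 and 10.6 CPM at P10, control first, and 173 at 3 months, a log2 ratio of 4.03 between the mutants (ratio interval 10.2 to 27.8). A single 3-month cell held 42.4% of its UMIs, and 27 members held any. Cxcl10, which shares its receptor, gave 53.5, 27.7 and 112 CPM. Macrophages held 0, 18.9 and 400 CPM of Cxcl9. The others were Ccl6 and Cx3cr1, and Ccl3 was lower, at 355 and 165 CPM. Gbp2, a guanylate-binding protein, and Iigp1 were higher and Ifi44 lower among 20 tested interferon genes.

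Between the mutants 2 of 8 tested cytokine genes, 3 of 11 pattern recognition receptors and 4 of 14 C-type lectins passed 2-fold, against 8.48% of all genes tested. Il1b had the highest level of the cytokines, at 2520, 1982 and 2891 CPM, and Tnf gave 89.1, 102 and 95.9 CPM. Both cytokine genes were lower at 3 months. Il18 gave 54.8 and 23.2 CPM, and Ebi3, a chain of interleukin-27 and interleukin-35, gave 69.5 and 26.1 CPM. At P10 Il1a was the one cytokine gene at least 2-fold lower in the mutant, at 34.9 and 9.42 CPM. Il10, an inhibitory cytokine, had no UMI in any member. Among C-type lectins Clec4e, which senses mycobacterial lipid, gave 42.8, 12.96 and 27.4 CPM, and Ly75, the endocytic receptor DEC-205, gave 7.13, 7.07 and 20.9 CPM. Tlr2, a sensor of bacterial lipoprotein, gave 108, 135 and 54.4 CPM. Ticam1, an adaptor of Toll-like receptors, was also lower at 3 months, at 20.6 and 8.69 CPM, and Tlr13, a sensor of bacterial RNA, higher, at 3.53 and 14.5 CPM. Of the lectins Clec4e and Ly75 were higher, and Clec4a2, at 93.1 and 39.3 CPM, and Cd209d lower.

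**Figure D4:**
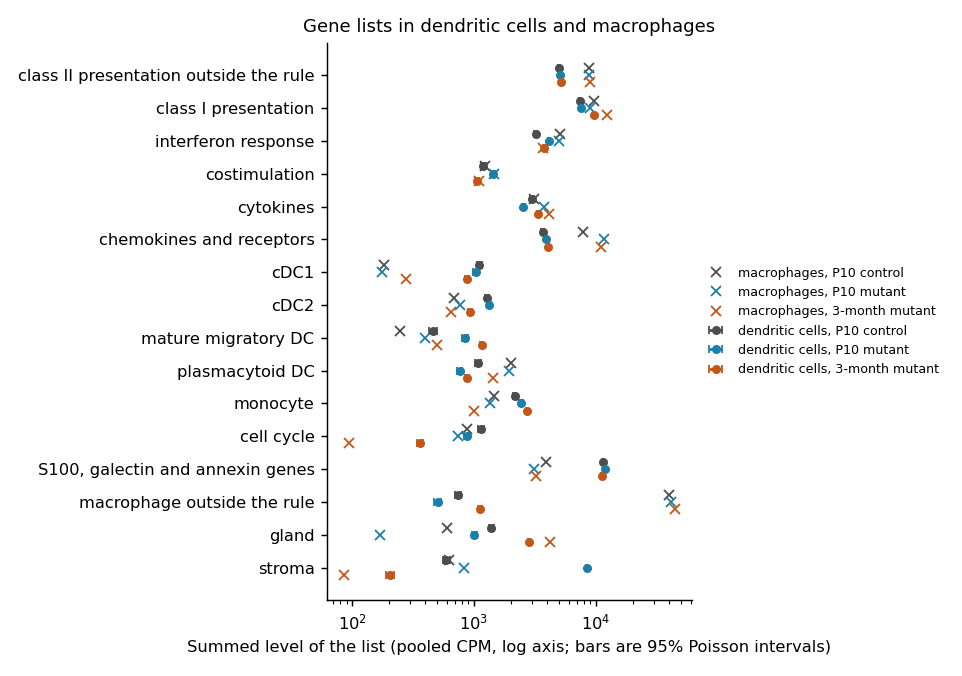
Summed level in CPM of each gene list, by library, on a log axis, where circles are dendritic cells and crosses are macrophages of the same library. Dendritic cells lie near macrophages on many lists and far below them on the macrophage list, where members gave 740, 504 and 1125 CPM.

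Cycling genes were lower at 3 months. The 13 cell cycle genes together gave 1140, 871 and 362 CPM. Between the mutants 8 of 12 tested were at least 2-fold lower, among them Mki67, Top2a and Ccnb1, with a median log2 ratio of -1.07. At P10 2 of 13 were at least 2-fold lower in the mutant, Pclaf and Rrm2, which serve DNA replication. At least 10 UMIs of the list were held by 20 of 90 members (22.2%, 14.1 to 32.2%), 18 of 119 (15.1%, 9.22 to 22.8%) and 13 of 270 (4.81%, 2.59 to 8.09%), and these cells held 93.6, 91.7 and 86.7% of the list's UMIs. After thinning to 5000 UMIs the shares were 14.6, 11.3 and 2.92%. Macrophages were also lowest at 3 months, at 13.8, 11.4 and 0.990% of cells. After thinning they gave 7.38, 8.89 and 0.746%, so that the P10 mutant lay above the control. Within groups, the cDC2 list cells gave 2622, 340 and 73.1 CPM and the cDC1 list cells 552, 663 and 1162 CPM. These pooled levels rest on few cells. At least 10 UMIs of the list were held by 8 of 24, 1 of 27 and 1 of 44 cDC2 list cells. In the cDC1 list cells the counts were 5 of 27, 3 of 25 and 5 of 28, so a rise in their share was not shown. A single 3-month member held 18.8% of the list's UMIs.

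**Figure D5:**
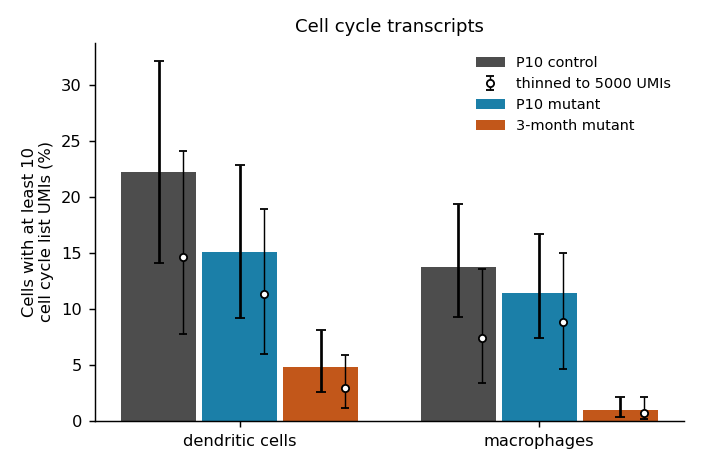
Share of dendritic cells and of macrophages with at least 10 UMIs of 13 cell cycle genes, in percent by library, with exact 95% binomial intervals and open circles for cells thinned to 5000 UMIs. In dendritic cells the share was 22.2 and 15.1% at P10, control first, and 4.81% at 3 months.

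None of the 13 S100, galectin and annexin genes passed 2-fold in either comparison. S100a4, a calcium-binding protein of motile cells, gave 837, 1292 and 1738 CPM, and S100a6 gave 973, 1453 and 1978 CPM. S100a10 ran the other way, at 943, 656 and 373 CPM. Of 12 genes of dissociation and heat stress 4 were at least 2-fold lower at 3 months, Hspa1a at 1952 and 244 CPM, Hspa1b at 1259 and 83.4 CPM, and Hsp90aa1 and Dnajb1 less so. Hspa1a in macrophages also stood lower, at 1434 and 492 CPM, and the part of handling in this was not tested.

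The genes with the largest ratios were for the most part not dendritic cell genes. In the P10 mutant Col1a1, a collagen of bone and stroma, gave 4754 CPM against 277 in the control, and 49.5% of its UMIs lay in 1 cell. Bglap, osteocalcin of bone, gave 1136 against 11.4 CPM with 57.3% in 1 cell, and stromal genes took up to 17.1% of a single member's UMIs. In the control Vmn1r184, a vomeronasal receptor, gave 941 CPM, of which 99.9% lay in 1 cell. Without the 2, 3 and 0 members that gave over 1% of UMIs to a list of another cell type, the log2 ratio of Col1a1 at P10 turned from 4.10 to -0.77. At 3 months the gland genes led, with Obp2a at 33.6 and 1630 CPM in the mutants, and all other filtered cells went from 2053 to 13364 CPM of it. Gm42418 went from 1173 to 28761 CPM in members and from 1780 to 37848 CPM in all other cells. The part of free RNA and of mixed droplets in these values was not tested.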

How the data were processed

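Vomeronasal cells of 3 libraries were read from the deposited matrices, in which the authors gave raw, unnormalised counts of UMIs per gene and barcode. Per the file headers, Cell Ranger 4.0.0 made both P10 matrices and Cell Ranger 6.0.1 the 3-month matrix, against mm10 per the labels, and the submitters' processing notes also name bcl2fastq and Seurat 3.2.3. The matrices held 8202, 8864 and 10293 barcodes and 83870584, 80760046 and 70074800 UMIs in the control, the P10 mutant and the mutant at 3 months. Coordinates came from GENCODE M21 (GRCm38), which held 32158 of the 32285 gene identifiers, and the first entry of 40 repeated symbols was used.

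Barcodes were kept with 200 to 9000 genes, at least 1000 UMIs and at most 10% mitochondrial UMIs, which left 4305, 3741 and 5307 cells. UMIs of members were summed per library and divided by all member UMIs (1402255, 1697668 and 3106329) to give CPM. Poisson, Clopper-Pearson and conditional binomial 95% intervals were exact and cover counting error only, since reads of 1 library are not replicates. The study's text covers the control library, and the mutant libraries were grouped by their labels. With 1 library per group no test was run, and genes with at least 50 UMIs in both libraries together are called tested. Ratios are given as log2 of mutant over control, or of 3-month over P10 mutant. Cells were thinned once with a fixed seed where shares of cells with a UMI were compared. Macrophages had at least 0.5% C1q UMIs and at most 2 Cd79a and Cd79b UMIs. No free RNA was removed and doublets were kept. Scrublet, run on all barcodes, called 0, 0 and 1 of them, which does not show that doublets were absent. As an alternative the highest Scrublet scores, 0.8% per 1000 barcodes, were left out. This took out 538, 629 and 848 barcodes, among them 4, 10 and 23 members.

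The members and the 28 gene lists were chosen with earlier results of these data known, and 303 of the 306 list genes were in the files. Marchf1, Clec7a and Mx1 were not analysed here. Genes were named when they stood in a list with at least 10 UMIs in the members of any library, when they were among the 10 with the farthest interval bound in a direction of a comparison, or when they were among the 15 with the highest mean log2 ratio of members over other cells. Scripts were tested on simulated data. Promoter sequences came from RefSeq for GRCm38.p6. Python 3.11.15 was used with numpy 2.4.6, scipy 1.17.1, pandas 2.3.3, scanpy 1.11.5 and matplotlib 3.10.9.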

Additional observations from a re-analysis of the deposited data

Results flagged for a closer look

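Barcodes outside the comparisons met the expression terms for dendritic cells. They exceeded the mitochondrial limit of 10% of UMIs but passed every other term, and they numbered 7 in the control, 14 in the mutant of the same age and 8 at 3 months. Their median class II share was 4.96, 4.49 and 4.64% of UMIs. They are not among the 479 members, and 20, 18 and 16 members lay between 5 and 10%.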

How the results depend on the processing

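No paired analysis was possible because each group has 1 library. The cause of each shift below was not tested, except where fewer cells, genes or UMIs set it. Of the shares, levels and counts recomputed, 316 stayed within their limits and 50 moved, and of the ratios of single genes 7569 stayed, 261 moved and 25 turned sign. The counts of genes followed the minimum of UMIs. At 20 UMIs they were 244 higher and 456 lower at P10 and 757 and 575 between the mutants, at 200 UMIs 15, 22, 80 and 62, and with cells thinned to 1000 UMIs 8, 4, 41 and 32.

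Thinning to 1000 UMIs also gave list shares of 14.4 and 12.6% for cDC1 in the P10 control and mutant, 11.1 and 9.63% for cDC2 in the P10 control and the 3-month mutant, and 23.5 and 35.9% for monocyte genes in the P10 and 3-month mutants. Single defining genes gave 18.9% cDC1 in the P10 control, 45.6, 42.9 and 43.0% cDC2 in the 3 libraries and 1.85% plasmacytoid cells at 3 months. The mitochondrial limit of 5% gave 4.69, 8.20 and 7.22% of kept cells, 17.8% of Ptprc cells in the P10 mutant, 1.43% plasmacytoid cells in the P10 control, Irf8 at 344 CPM in the P10 control, Ccr7 at 97.4 and 171 CPM in the P10 and 3-month mutants and a Siglech log2 ratio of 0.77 at P10.

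A class II minimum of 2% gave plasmacytoid shares of 1.28, 0 and 2.51%, 4.50% of kept and 11.2% of Ptprc cells at 3 months and 65 genes lower at P10. There the log2 ratios at P10 turned to 2.68 for A2ml1, -1.83 for Ccl5, -1.20 for Col1a1, -1.25 for Col1a2, -1.01 for Sparc and 0.67 for Wfdc18, and between the mutants to -0.25 for Ly6d and 0.14 for Sparc. A minimum of 0.5% gave 184 genes lower at P10, 422 lower between the mutants and -0.27 for Socs2 between the mutants. Without the highest doublet scores the plasmacytoid share was 0 in the P10 mutant and 2.83% at 3 months, 49 genes were higher at P10, Irf8 was 451 CPM in the P10 control and Ccr7 was 176 CPM at 3 months. The P10 ratios turned to 0.11 for A2ml1, -1.74 for Ccl5, -1.30 for Col1a1, -1.67 for Col1a2, -2.24 for Sparc and 0.57 for Wfdc18, and Spp1 to 0.14 between the mutants.

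Alternatives chosen after seeing the data turned 6 ratios at P10. Without mixed cells A2ml1 was 0.19, Col1a1 -0.77, Col1a2 -1.12, Sparc -1.23 and Wfdc18 0.57, and without the members that held at least 3 Ccr7 UMIs Ccl5 was -3.15. The planned removal of the member with most UMIs per library turned A2ml1 to 0.15 and Wfdc18 to 0.53. As means over cells, Irf8 was 490, 405 and 262 CPM, Xcr1 92.9 and 51.0 and Ccr7 91.7 in the P10 mutant, the Xcr1 values being those of the P10 and 3-month mutants. With 90 to 270 members per library, shares of a few percent have wide intervals, and ratios of genes under 50 UMIs rest on few counts.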
